A study of Mus musculus with 24 samples.

Results

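The Rab30 main effect is the average change in liver RNA between mice with and without hepatic Rab30, taken over livers with and without Cpt2. It was measured in 16 of the 24 libraries of the series, 8 from Rab30-deficient livers and 8 from Rab30-intact livers. The Rab30-deficient side held 4 Rab30L-/- livers and 4 livers that lack both Rab30 and Cpt2 (DKO). The Rab30-intact side held 4 ff;ff livers and 4 Cpt2L-/- livers. The members were chosen from the genotype label of each library, and every gene was fitted with the Cpt2 state as a covariate, so that livers of the same Cpt2 state were compared with each other. All 16 mice were males on a C57BL/6J background, 8 to 10 weeks old, and were fasted for 24 h before the liver was taken.

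Rab30L-/- mice carry a floxed exon 4 of Rab30 and Cre under the albumin promoter, which is active in hepatocytes and leaves the gene intact in the other cells of the liver. Cpt2L-/- mice carry a floxed Cpt2 gene with the same Cre, and DKO mice carry both floxed genes with it. The ff;ff controls carry both floxed genes without Cre and are littermates of DKO. Cre is therefore absent from the ff;ff group and present in the other 3 groups. No floxed littermates of Rab30L-/- or of Cpt2L-/- are among the 16, so Rab30L-/- and ff;ff come from different litters, as do DKO and Cpt2L-/-. The labels do not name the colony of Rab30L-/- or of Cpt2L-/-. In this layout loss of Rab30 and descent from other litters cannot be told apart within either Cpt2 state. The libraries do not say that they come from separate cages or days, and each p-value measures the spread between livers as they were sampled.

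Rab30 is a small GTPase of the Rab family found at the Golgi. Rab proteins switch between a GTP-bound form, which recruits tethers and other effectors to a membrane, and a GDP-bound form, and in this way direct the traffic of vesicles between compartments. Hepatocytes send large amounts of lipoproteins, complement and clotting proteins through the Golgi into the blood. During a fast they also take up and oxidize fatty acids, and Cpt2, the carnitine palmitoyltransferase of the inner mitochondrial membrane, is needed for the oxidation of long-chain fatty acids.

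The floxed exon is shown because the counts over Rab30 are read against it. It is named exon 4 for these mice, and is taken here to be exon 4 of the transcript Rab30-201, since the transcript behind that numbering was not given. Exon 4 of this transcript spans chr7:92829526-92829709 on the plus strand of GRCm38, and its 184 bases are all coding. The length leaves a remainder of 1 when divided by 3. It makes up 1.95% of the 9456 bases of the transcript. Counts of the entire gene can therefore hold reads from the other exons of a deleted allele and do not by themselves check the deletion. In the run that follows, exon 4 is in capitals and the 15 bases of the neighbouring exons on each side are in lower case.
Rab30 exon 4: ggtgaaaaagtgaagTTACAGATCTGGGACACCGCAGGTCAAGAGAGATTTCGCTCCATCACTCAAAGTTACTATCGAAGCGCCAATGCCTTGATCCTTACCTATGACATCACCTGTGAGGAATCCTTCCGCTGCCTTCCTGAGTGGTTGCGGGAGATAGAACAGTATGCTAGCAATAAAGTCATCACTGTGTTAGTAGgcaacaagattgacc

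Levels are given as CPM, the reads counted on a gene scaled to the size of the library after TMM normalization over the 16 libraries, and values in a list follow replicates 1 to 4 of a group. Rab30 (ENSMUSG00000030643, chromosome 7, 92741603 to 92844535) was at 26.1, 45.9, 45.4 and 31.6 CPM in the libraries labelled ff;ff. It was at 19.7, 10.5, 26.2 and 12.5 CPM in those labelled Rab30L-/-. With Cpt2 deleted the level was higher on both sides, at 124, 131, 187 and 150 CPM in the libraries labelled Cpt2L-/- and at 132, 102, 235 and 183 CPM in those labelled DKO. The Rab30L-/- and ff;ff libraries overlapped at their edges, with the lowest ff;ff value just under the highest Rab30L-/- value, and the DKO libraries spanned the whole range of the Cpt2L-/- libraries. The log2 fold change over both states was -0.47 with an SE, the standard error, of 0.26, and edgeR's quasi-likelihood test gave an adjusted p of 0.702. It stayed between -0.62 and -0.33 when each library was left out in turn. The whole-gene count thus does not separate the labels, and the libraries are described by their labels throughout.

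Cpt2 (ENSMUSG00000028607, chromosome 4, 107903981 to 107923610) was at 129 to 143 CPM in the ff;ff libraries and at 172 to 275 CPM in the Rab30L-/- libraries. It was at 96.9 to 166 CPM in the libraries labelled Cpt2L-/- and at 97.4 to 120 CPM in those labelled DKO. All DKO livers lay below all ff;ff livers, and every Cpt2L-/- and DKO liver lay below every Rab30L-/- liver, while the Cpt2L-/- livers spanned the ff;ff range. The log2 fold change for loss of Rab30 was 0.23 (SE 0.16, adjusted p = 0.765), and the changes in the 2 Cpt2 states differed, with an interaction of -0.99 on the log2 scale (adjusted p = 0.0191). In the FPKM values of the authors, which divide by gene length, mean Rab30 was 3.86 in ff;ff, 1.78 in Rab30L-/-, 15.4 in Cpt2L-/- and 17.05 in DKO. Rab2a, a Rab of the same route from the ER through the Golgi, was at mean FPKM values of 59.7, 54.8, 68.6 and 67.9 in the same groups, above Rab30 in each of them.

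**Figure D1:**
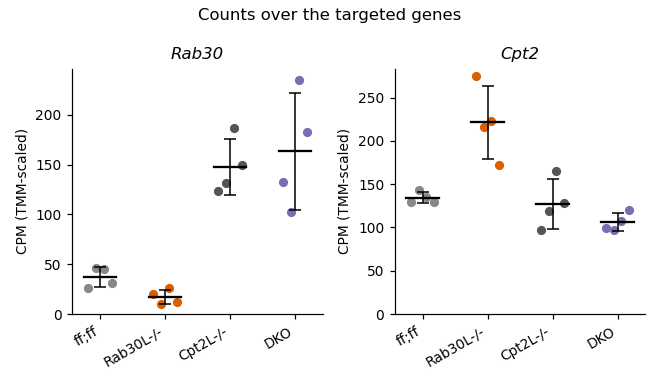
Counts over Rab30 and Cpt2 in each liver, in TMM-scaled CPM (linear axis from 0), by group, with points for single livers and bars for the mean and SD of 4. Rab30 lies between 10.5 and 45.9 CPM in the Rab30L-/- and ff;ff livers and between 102 and 235 CPM in the Cpt2L-/- and DKO livers.

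Library totals ran from 13230854 to 24497738 counts, with a median of 14114475. The first principal component of the 500 most variable genes held 61.2% of the variance and set Cpt2-deleted livers apart from Cpt2-intact livers. The mean of the Rab30-deficient livers was lower on it (exact two-sided permutation test within Cpt2 states, p = 0.00816, adjusted over 8 measures 0.0506). DKO and Cpt2L-/- livers did not overlap on it, and Rab30L-/- and ff;ff livers did. The fourth component, with 4.87% of the variance, gave p = 0.0127 by the same exact test and the same adjusted value. The smallest p among the other 6 measures, which included the library total, the number of genes detected and the shares of counts from mitochondrial genes and from the 20 most abundant genes, was 0.261 by that exact test.

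Few genes changed with Rab30 over both Cpt2 states. Of 14063 genes tested, 4 passed the thresholds, an adjusted p under 0.05 with a change of 1.2-fold or more, which is 0.0284% of them. Gbp11, Tram2 and Gm14292 rose and Hjurp fell. At an unadjusted p under 0.05 with the same fold, 570 genes (4.05%) were higher and 394 (2.8%) were lower, and the median log2 fold change of all genes was -0.00. These are the shares to set beside the list and marker counts of the main effect below.

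Gbp11 belongs to the guanylate-binding proteins, large GTPases that are induced by interferon and act against pathogens inside cells. The annotation calls it a polymorphic pseudogene, on the minus strand of chromosome 5 from 105323042 to 105346472. It was at 2.91, 1.28, 2.69 and 1.80 CPM in ff;ff and at 18.1, 14.6, 28.4 and 39.1 CPM in Rab30L-/-. With Cpt2 deleted it was at 0.391, 0.192, 0.642 and 0.564 CPM in Cpt2L-/- and at 4.85, 6.09, 0.925 and 0.984 CPM in DKO. Every Rab30-deficient liver lay above every intact liver of its own Cpt2 state. The log2 fold change was 3.27 (SE 0.42, adjusted p = 0.00501), with 3.55 where Cpt2 was intact and 2.81 where it was deleted. Of its 50-base words, 19.2% also occur in transcripts of other genes, with 9.57% of all its words found in Gbp8, so some of its reads could belong to other members of the family.

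Hjurp, the chaperone that places the centromeric histone Cenpa, moved the other way. It was at 122, 112, 109 and 116 CPM in ff;ff and at 39.2, 47.9, 30.3 and 46.8 CPM in Rab30L-/-. The Cpt2L-/- livers held 122, 134, 98.5 and 119 CPM, and the DKO livers held 49.4, 78.1, 92.1 and 70.8 CPM. All 8 Rab30-deficient livers lay below all 8 intact livers. The log2 fold change was -1.09 (SE 0.15, adjusted p = 0.00501), with -1.48 where Cpt2 was intact and -0.70 where it was deleted, and the difference between the states did not pass the test (adjusted p = 0.0724). Hjurp lies on the minus strand of chromosome 1 from 88262471 to 88277633, and 0.425% of its 50-base words are shared with other genes. Per length, its mean FPKM was 13.8 in ff;ff, 4.91 in Rab30L-/-, 14.2 in Cpt2L-/- and 8.78 in DKO.

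Tram2, which takes part in the passage of collagen chains into the ER, is also on chromosome 1, on the minus strand from 20996299 to 21079229. It was at 31.3, 38.7, 34.6 and 36.0 CPM in ff;ff and at 79.4, 98.9, 50.9 and 71.1 CPM in Rab30L-/-. The Cpt2L-/- livers held 29.3, 34.2, 24.3 and 32.1 CPM and the DKO livers 67.6, 60.6, 32.6 and 45.9 CPM. The groups did not overlap where Cpt2 was intact, and DKO replicate 3 lay within the range of Cpt2L-/-. In log2 terms the fold change was 0.94 (SE 0.15, adjusted p = 0.0222), and none of its 50-base words occurs in another gene.

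Gm14292 is a processed pseudogene on chromosome 2, from 179177425 to 179177880 on the plus strand, and 79.1% of its 50-base words occur in other genes, with 69.5% of all its words found in Wtap. Its level was 0.883, 2.13, 3.40 and 1.16 CPM in ff;ff and 4.57, 4.92, 2.40 and 3.85 CPM in Rab30L-/-. It was 1.11, 1.15, 1.03 and 1.003 CPM in Cpt2L-/- and 5.63, 5.82, 4.36 and 4.92 CPM in DKO. Its groups overlapped with Cpt2 intact and not with Cpt2 deleted, and the log2 fold change was 1.63 (SE 0.28, adjusted p = 0.0381). Because most of its sequence is not its own, its reads are uncertain.

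With at least 10 counts required in every library, 3 genes were called, and Gbp11, which had 3 to 10 counts in the Cpt2L-/- libraries, was not tested. When each library was left out in turn, Gbp11 and Hjurp passed the thresholds in 16 of 16 fits, with adjusted p-values of at most 0.0324 and 0.0322. Tram2 passed in 9 of 16, with an adjusted p of 0.0818 without ff;ff replicate 4, and Gm14292 passed in 5 of 16, with 0.120 without Cpt2L-/- replicate 3. The number of genes called ran from 2 without Rab30L-/- replicate 4 to 12 without DKO replicate 3. A fit that gave each group its own mean and then averaged the 2 states called 34 genes (0.242% of those tested), among them all 4. The Wald test of DESeq2 called 73 genes, limma-voom with sample quality weights called 52, each with the same 4 among them.

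**Figure D2:**
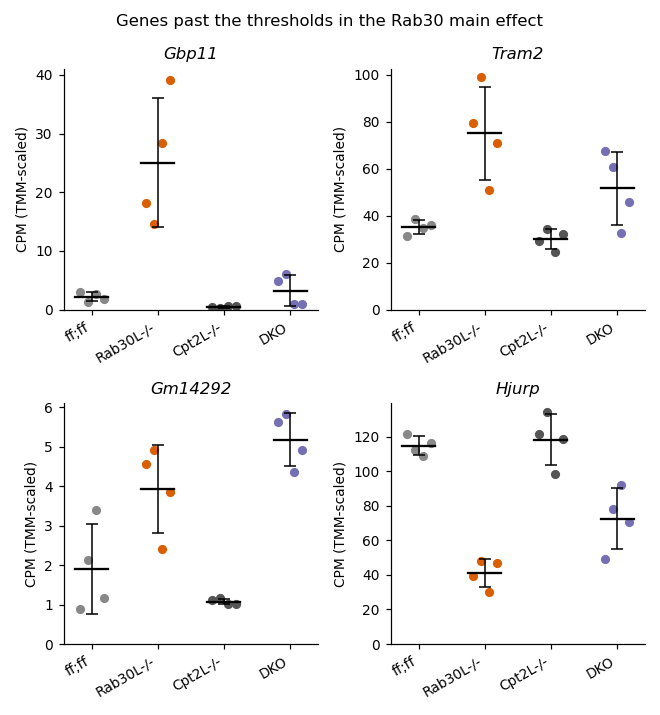
Level in each liver of the genes past the thresholds, in TMM-scaled CPM (linear axes from 0), by group, with points for single livers and bars for the mean and SD of 4. Hjurp lies at 30.3 to 92.1 CPM in the Rab30L-/- and DKO livers and at 98.5 to 134 CPM in the ff;ff and Cpt2L-/- livers.

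The next genes by p, chosen after their values were seen, were Tgtp2, Sgk3, Plekhb2 and Ripor2, with adjusted p-values of 0.0555, 0.0573, 0.0916 and 0.0933. Sgk3, Plekhb2 and Ripor2 are among the 7 genes called by all 4 of DESeq2, limma-voom, the average of both simple effects and the fit over all 24 livers, with Hjurp, Tram2 and Gbp11. Limk1, named after its values were seen, is also among them, and Gm14292 is not. Sgk3, a kinase that binds endosomal phosphoinositides, was at 14.4, 7.97, 8.86 and 12.99 CPM in ff;ff and at 17.04, 16.4, 24.3 and 17.9 CPM in Rab30L-/-. It was at 14.2, 13.4, 14.4 and 12.98 CPM in Cpt2L-/- and at 39.9, 36.0, 18.2 and 21.0 CPM in DKO. No Rab30-deficient liver overlapped an intact one. Sgk3 differed by 0.92 on the log2 scale (SE 0.17).

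Plekhb2, a pleckstrin homology protein of recycling endosomes, was at 14.9, 15.5, 8.64 and 17.6 CPM in ff;ff and at 2.40, 5.75, 2.85 and 3.31 CPM in Rab30L-/-. Its levels were 16.1, 16.8, 17.97 and 17.6 CPM in Cpt2L-/- and 9.49, 10.6, 14.7 and 9.98 CPM in DKO. It was lower within each state without overlap, with log2 fold changes of -1.99 and -0.61, and the difference between the states passed the test (interaction 1.39, adjusted p = 0.0298).

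All 8 against all 8 livers separated without overlap for 4 of 14063 genes (0.0284%), which were Hjurp, Sgk3, Prmt6 and Prex2. Prmt6 and Prex2 were named after their values were seen. Prmt6, an arginine methyltransferase of histones, was at 4.06 to 6.80 CPM in the intact livers and at 2.07 to 3.87 CPM in the deficient ones, with a log2 fold change of -0.78 (adjusted p = 0.169). Prex2, an exchange factor for the GTPase Rac, was at 4.62 to 7.77 CPM in the intact livers and at 9.05 to 46.2 CPM in the deficient ones, with a log2 fold change of 1.40 (adjusted p = 0.193). Within each Cpt2 state and in the same direction, 22 genes (0.156%) separated without overlap.

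Several of these genes lie on chromosome 1. It carries 5.97% of the genes tested and 4 of the 8 genes with an adjusted p under 0.1. Sgk3 starts at position 9798107, Prex2 at 10993465, Tram2 at 20996299, Plekhb2 at 34849976 and Hjurp at 88262471. Among the 72 genes that moved the same way in both states at an unadjusted p under 0.05, 12 (16.7%) were on chromosome 1. At an unadjusted p under 0.05 with the fold, chromosome 1 held 66 of its 839 genes (7.87%), against 964 of 14063 over all chromosomes. Larger shares were held by chromosomes 11 (8.24%) and 15 (8.17%) and by the mitochondrial genome, with 5 of its 27 genes (18.5%). What the mice of each group carry on chromosome 1 was not tested. Of the genes starting within 5 Mb of Rab30, 40 were tested and none was called. At an unadjusted p, 3 of them were higher, with Aqp11 at a log2 fold change of 0.42 and Ctsc at 0.66 as the smallest p-values, and their median was -0.01. Of 55 tested within 5 Mb of Cpt2, 2 were higher and 1 was lower, the smallest p-values were those of Gm12715 (-0.69) and Zfyve9 (0.31), and the median was 0.02.

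The average hides 2 sets of changes that mostly ran against each other. Where Cpt2 was intact, 64 of 13367 genes (0.479%) passed the thresholds between Rab30L-/- and ff;ff, 40 higher and 24 lower. Where Cpt2 was deleted, 360 of 13306 genes (2.71%) passed between DKO and Cpt2L-/-, 183 higher and 177 lower. These counts rest on single libraries: the 64 ran from 23 without Rab30L-/- replicate 4 to 93 without Rab30L-/- replicate 1, and lay at 35 to 37 without Rab30L-/- replicate 2 or ff;ff replicate 2. The 360 fell to 57 without Cpt2L-/- replicate 4, and to 98 to 229 without DKO replicates 1 or 2 or Cpt2L-/- replicates 1, 2 or 3. At an unadjusted p with the fold, 6.37% of genes were higher and 4.81% lower with Cpt2 intact, and 10.5% were higher and 10.7% lower with Cpt2 deleted. Of the 13 genes called in both states, 0 had the same sign and 13 had opposite signs. The difference between the states was itself past the thresholds for 571 of 14063 genes (4.06%), 310 of them with a more positive change in DKO. The 571 fell to 300 without Cpt2L-/- replicate 4 and to 328 to 365 without Rab30L-/- replicates 2 or 4, DKO replicate 2 or Cpt2L-/- replicates 2 or 3.

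Across the 12853 genes tested in both states the log2 fold changes had a Pearson r of -0.29 and a Spearman rho of -0.26, and 39.1% of the genes had the same sign. The comparisons share no library, and genes are not independent replicates. The median absolute log2 fold change was 0.19 with Cpt2 intact and 0.22 with Cpt2 deleted, against 0.12 for the main effect over the same genes. With an unadjusted p under 0.05 and the same fold, 402 genes were past the mark in both states. Of these, 330 had opposite signs and 72 had the same sign, 48 higher and 24 lower, and the 4 genes called in the main effect were among the 72. Since ff;ff and DKO are the groups that share litters, the contrast that gives the interaction is also the contrast of those litters with the other 2 groups. The interaction and that contrast of litters cannot be told apart.

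**Figure D3:**
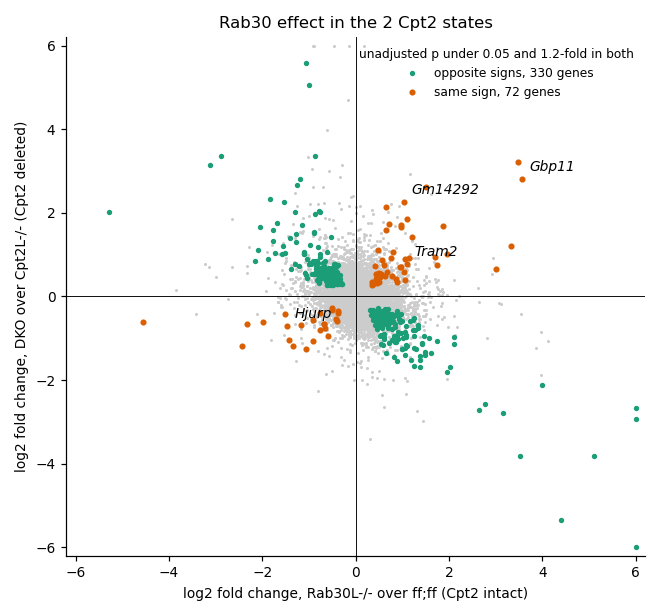
Log2 fold change of Rab30L-/- over ff;ff (horizontal) against that of DKO over Cpt2L-/- (vertical), 1 point for each of 12853 genes, with values beyond 6 on either axis drawn at the edge. Coloured points are past an unadjusted p of 0.05 and a 1.2-fold change in both states, 330 with opposite signs and 72 with the same sign.

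The interferon-induced genes were the list with the largest share of members higher at an unadjusted p. Of 40 tested, 15 (37.5%) were higher and 0 lower, against 4.05% and 2.8% of all genes, and none passed the adjusted threshold in either direction. The median log2 fold change of the list was 0.47, against -0.00 over all genes, with 0.74 where Cpt2 was intact and 0.04 where it was deleted. By state, 26 of 39 members tested were higher and 0 lower at an unadjusted p where Cpt2 was intact, against 6.37% and 4.81% of all genes. Where it was deleted, 3 of 34 were higher and 0 lower, against 10.5% and 10.7%. Gbp3, an interferon-induced GTPase named after its values were seen, was the 1 member called with Cpt2 intact (1.60, adjusted p = 0.0461), against 0.479% of all genes. None was called with Cpt2 deleted, against 2.71%, and 3 passed the interaction, against 4.06%. The list holds antiviral effectors of type I interferon and GTPases of interferon gamma that act on vacuoles of pathogens. The count of 15 ran from 13 to 19 when each library was left out in turn. It was 9 without the Cpt2 covariate and 6 in a fit over all 24 livers, alternatives that were applied to the list after the data were seen.

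Tgtp1 and Zbp1 had the smallest p-values of the list. Tgtp1, a T cell-specific GTPase, was at 4.42, 2.98, 1.13 and 1.99 CPM in ff;ff and at 3.33, 18.3, 10.6 and 9.55 CPM in Rab30L-/-. It was under 1 CPM in all Cpt2L-/- livers and in DKO replicates 2 to 4, with 2.996 CPM in DKO replicate 1. The log2 fold change over both states was 1.80 (SE 0.44, adjusted p = 0.239), and Tgtp1 passed with DESeq2 (adjusted p = 0.00806). Its near copy Tgtp2, named here after its values were seen, was at 0.618, 0.487, 0.850 and 1.41 CPM in ff;ff and at 2.25, 11.2, 13.8 and 6.55 CPM in Rab30L-/-. In Cpt2L-/- it was at 0.193 to 0.627 CPM and in DKO at 0.642 to 0.991 CPM, so that it did not overlap within either state, and its log2 fold change was 2.50 (SE 0.44, adjusted p = 0.0555). Tgtp1 holds 85.8% of the 50-base words of Tgtp2, and reads of the pair cannot be assigned with confidence.

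Zbp1, a sensor of Z-form nucleic acids, was at 4.06, 2.98, 1.42 and 3.47 CPM in ff;ff and at 3.49, 12.7, 11.3 and 11.6 CPM in Rab30L-/-. Its levels were 0.782 to 1.76 CPM in Cpt2L-/- and 0.925 to 2.22 CPM in DKO, which overlapped, and its log2 fold change was 1.10 (SE 0.33, adjusted p = 0.398). In Rab30L-/- replicate 1 it lay within the ff;ff range, and the other 3 Rab30L-/- livers lay above it. The same replicate was the lowest of its group for Gbp7, at 6.04 CPM against 15.9 to 17.4 CPM in the other 3, and for Ifit3, at 5.65 CPM against 14.0 to 18.1 CPM. Gbp7 was at 1.70 to 10.6 CPM in ff;ff, and its log2 fold change was 0.88 (adjusted p = 0.530). Ifit3, which binds viral RNA together with Ifit1, was at 1.98 to 7.60 CPM in ff;ff, with a log2 fold change of 0.89 (adjusted p = 0.490). For both genes the change was near 0 where Cpt2 was deleted, at 0.27 for Gbp7 and 0.11 for Ifit3.

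The promoters of the list members Gbp7 and Ifit3 and of Tgtp2, which is not on the list, were chosen after their values were seen and show the 2 kinds of element by which interferon genes are known to be switched on. The RefSeq windows of GRCm38.p6 run from 250 bases before to 50 after the start. The motifs GAAANNGAA, the core of the element bound by interferon regulatory factors and their complex with Stat proteins, and TTCNNNGAA, the Stat dimer site, were searched on both strands and are in capitals.
Tgtp2, chr11:49064163-49064462, minus strand: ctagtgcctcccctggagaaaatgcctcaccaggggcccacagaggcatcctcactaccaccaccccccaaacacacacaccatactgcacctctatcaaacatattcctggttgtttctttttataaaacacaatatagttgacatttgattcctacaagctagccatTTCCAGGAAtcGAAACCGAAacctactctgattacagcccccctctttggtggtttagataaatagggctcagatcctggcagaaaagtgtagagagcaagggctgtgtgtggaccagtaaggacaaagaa
Gbp7, chr3:142530086-142530385, plus strand: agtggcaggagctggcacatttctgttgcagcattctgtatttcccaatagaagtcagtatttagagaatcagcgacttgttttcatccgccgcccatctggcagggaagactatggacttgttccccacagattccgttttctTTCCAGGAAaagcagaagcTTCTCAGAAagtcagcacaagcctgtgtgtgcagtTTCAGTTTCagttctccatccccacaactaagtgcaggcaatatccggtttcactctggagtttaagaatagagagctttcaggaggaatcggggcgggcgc
Ifit3, chr19:34583279-34583578, plus strand: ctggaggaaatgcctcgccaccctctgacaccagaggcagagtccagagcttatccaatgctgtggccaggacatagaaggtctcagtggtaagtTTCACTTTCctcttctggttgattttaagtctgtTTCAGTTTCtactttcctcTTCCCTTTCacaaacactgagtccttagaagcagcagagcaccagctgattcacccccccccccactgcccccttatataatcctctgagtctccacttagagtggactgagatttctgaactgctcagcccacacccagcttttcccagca
The Tgtp2 window holds 1 match of each motif, the Gbp7 window 1 of GAAANNGAA and 2 of TTCNNNGAA, and the Ifit3 window 3 of GAAANNGAA and 0 of TTCNNNGAA. Of the 40 list members, 29 had a promoter in the table. GAAANNGAA occurred in 18 of these (62.1%) and in 9.76% of all 27025 genes with a window, and TTCNNNGAA in 8 of them (27.6%) and in 9.55% of all genes. Among the 10211 tested genes with a window, the shares were 8.78% and 8.41%. The list was drawn up as interferon-induced genes, so its motif shares describe the list and not the loss of Rab30. Counted over all 32851 windows, of which a gene can have several, the shares were 8.56% and 8.30%. The motifs overlapped each other in 54 windows. These are matches of letters, and binding was not measured.

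**Figure D4:**
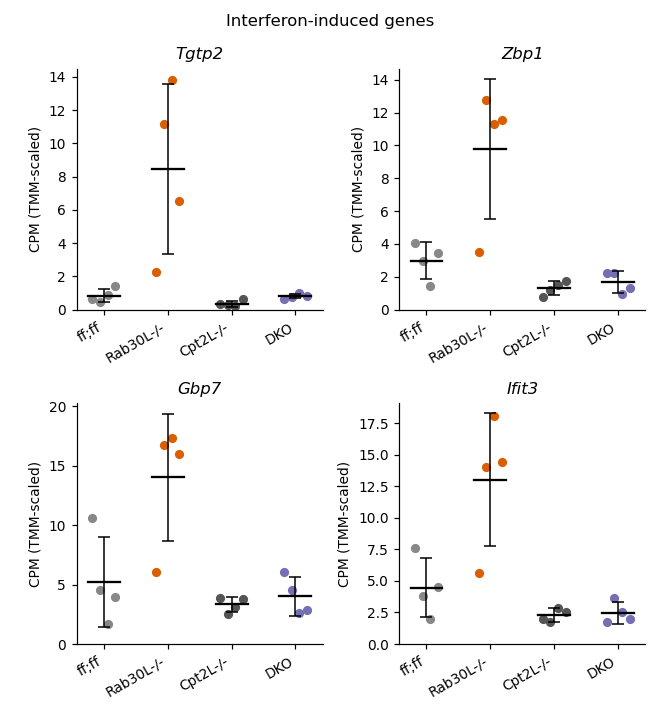
Level of Tgtp2, Zbp1, Gbp7 and Ifit3 in each liver, in TMM-scaled CPM (linear axes from 0), by group, with points for single livers and bars for the mean and SD of 4. In each panel at least 3 of the 4 Rab30L-/- livers lie above all ff;ff livers, and the Cpt2L-/- and DKO livers lie at 0.193 to 6.06 CPM.

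Summed over the whole list, the interferon genes reached 336 to 655 CPM in ff;ff, 624 to 914 CPM in Rab30L-/-, 264 to 367 CPM in Cpt2L-/- and 274 to 349 CPM in DKO. Markers of other cells differed in the same comparison, not all in the same direction. The 13 Kupffer cell and macrophage markers summed to 285 to 488 CPM in ff;ff, 346 to 930 CPM in Rab30L-/-, 253 to 361 CPM in Cpt2L-/- and 250 to 313 CPM in DKO, and all 13 were detected in every group. None of them was called, 2 were higher at an unadjusted p, and their median was 0.29, with 0.68 where Cpt2 was intact and -0.14 where it was deleted. By state, 5 of the 13 were higher and 0 lower with Cpt2 intact, against 6.37% and 4.81% of all genes, and 1 was higher and 4 were lower with Cpt2 deleted, against 10.5% and 10.7%. Cd74, the invariant chain of MHC class II, had a log2 fold change of 0.63 and Timd4, a receptor of resident macrophages, of 0.82 (adjusted p = 0.260 and 0.444). The 12 lymphocyte markers summed to 5.10 to 6.54 CPM in ff;ff, 8.44 to 14.3 CPM in Rab30L-/-, 3.98 to 8.60 CPM in Cpt2L-/- and 3.89 to 10.3 CPM in DKO. Of these, 6 were tested, 0 were called and 1 was higher at an unadjusted p, with a median of 0.57 and with Ighm, the heavy chain of IgM, at 0.77. With Cpt2 intact 3 of 5 were higher and 0 lower at an unadjusted p, and with Cpt2 deleted only 1 was tested, which was not past it. The 11 sinusoidal endothelial markers had a median of -0.42 where Cpt2 was intact, with 0 higher and 4 lower at an unadjusted p, against 6.37% and 4.81% of all genes, and of 0.10 where it was deleted. The part of these cells in the interferon values was not tested. In bulk liver, more cells of a type and more RNA per cell cannot be told apart.

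Complement and coagulation genes, which hepatocytes make for secretion, were the next list by its share. Of 67 tested, 13 (19.4%) were higher at an unadjusted p and 0 lower, against 4.05% and 2.8% of all genes. None passed the adjusted threshold. The median log2 fold change was 0.17, with 0.29 where Cpt2 was intact and 0.07 where it was deleted. By state, 13 were higher and 1 lower with Cpt2 intact, against 6.37% and 4.81% of all genes, and 11 were higher and 6 lower with Cpt2 deleted, against 10.5% and 10.7%. C2, a serine protease of the classical pathway, was at 51.7, 34.1, 38.3 and 39.9 CPM in ff;ff and at 61.3, 70.4, 51.2 and 74.1 CPM in Rab30L-/-. In Cpt2L-/- it was at 19.6, 22.8, 24.6 and 19.4 CPM and in DKO at 25.7, 32.3, 22.0 and 23.2 CPM. The ranges overlapped within each state, and the log2 fold change was 0.45 (SE 0.12, adjusted p = 0.262), and C2 passed with limma-voom (adjusted p = 0.0448). Serping1, the C1 inhibitor, had a log2 fold change of 0.41 (SE 0.13, adjusted p = 0.413), at 586 to 730 CPM in DKO and 458 to 585 CPM in Cpt2L-/-. The count of 13 fell to 7 without ff;ff replicate 2 and to 8 without Rab30L-/- replicate 2, and it was 0 without the Cpt2 covariate. The list summed to 48344 to 61977 CPM in ff;ff and 58099 to 90159 CPM in Rab30L-/-, and to 23481 to 28875 CPM in Cpt2L-/- and 22416 to 28950 CPM in DKO.

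The acute phase list, secreted proteins that rise in inflammation, had a median of 0.37, with 0.77 where Cpt2 was intact and 0.04 where it was deleted. Of 29 tested, 3 (10.3%) were higher at an unadjusted p, against 4.05% of all genes, 0 were lower and none was called. By state, 5 were higher and 1 lower of 29 with Cpt2 intact, against 6.37% and 4.81% of all genes, and 6 were higher and 1 lower of 28 with Cpt2 deleted, against 10.5% and 10.7%. With Cpt2 intact the mean summed level of the list, which its most abundant genes set, differed in sign from the median. The sum was 105273 to 128480 CPM in ff;ff and 80676 to 116497 CPM in Rab30L-/-, with a lower mean in Rab30L-/- (99759 against 114600 CPM) and with overlap, and 40419 to 53073 CPM in Cpt2L-/- and 54852 to 67497 CPM in DKO, without overlap. Hamp2, a copy of the iron hormone hepcidin, had a log2 fold change of 1.88 (SE 0.61, adjusted p = 0.460) and Il1rn, the antagonist of the interleukin-1 receptor, of 0.90 (SE 0.36, adjusted p = 0.552).

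The genes closest to the known work of Rab30 did not pass the test of the main effect. Of 43 Rab GTPases, 0 were called and 0 passed an unadjusted p with the fold, their median was -0.04, and their log2 fold changes lay between -0.52 and 0.33. The additive fit averages the states, and Rab36, named after its values were seen, was called in both with opposite signs, at 1.08 with Cpt2 intact (adjusted p = 0.0402) and -1.16 with Cpt2 deleted (adjusted p = 0.00508), and in the interaction (-2.24, adjusted p = 5.86e-05). It was the 1 Rab called in each of these, where 0.479%, 2.71% and 4.06% of all genes were called. At an unadjusted p, 2 of 40 were higher and 2 lower with Cpt2 intact, against 6.37% and 4.81% of all genes, and 0 of 40 were higher and 5 lower with Cpt2 deleted, against 10.5% and 10.7%. Rab27a, which acts in the release of secretory organelles, was at -0.52 and Rab34, a Rab of the Golgi and cilium, at -0.23, with adjusted p-values of 0.657 and 0.740. A p that misses the threshold does not show that these genes were unaffected. Rab2a was at -0.07 (SE 0.10, adjusted p = 0.902). The Golgi tethers and Rab30 neighbours gave 0 of 49 at either mark, with a median of -0.02 and with values from -0.27 to 0.22. With Cpt2 intact 2 were higher and 2 lower, against 6.37% and 4.81% of all genes. With Cpt2 deleted 3 were higher and 5 lower, against 10.5% and 10.7%. Tmf1, a golgin named after its values were seen, was the 1 called with Cpt2 deleted (0.58, adjusted p = 0.0382), against 2.71% of all genes. It was also the 1 called in the interaction, against 4.06%. Over both states Exoc4, a subunit of the exocyst, was at 0.22 and Golga1, a golgin of the trans-Golgi, at 0.17. Golga4, another golgin of the trans-Golgi, was at 0.01 and Gorasp2, which links Golgi cisternae, at -0.06 (adjusted p = 0.996 and 0.928). The 66 genes of ER to Golgi transport also gave 0 at either mark, with a median of 0.02 and with Copz2, a subunit of the COPI coat, at 0.21 and Mcfd2, a cargo receptor for clotting factors, at 0.19. With Cpt2 intact 2 of 65 were higher and 0 lower, against 6.37% and 4.81% of all genes. With Cpt2 deleted 7 of 66 were higher and 6 lower, against 10.5% and 10.7%. Sar1b, the GTPase of COPII coats, also named after its values were seen, was the 1 called with Cpt2 deleted (0.54, adjusted p = 0.0327). It was the 1 called in the interaction too. The shares of all genes called were 2.71% and 4.06%.

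The medians of the lysosome and autophagy genes also lay close to 0. Of 73 lysosome genes, 1 was higher at an unadjusted p and 0 lower, with a median of -0.00. By state, 5 were higher and 0 lower where Cpt2 was intact, against 6.37% and 4.81% of all genes, and 1 was higher and 12 were lower where it was deleted, against 10.5% and 10.7%. Of the 73, 3 passed the interaction, against 4.06% of all genes. Ctsc, a protease that activates serine proteases of immune cells, was at 0.66 (SE 0.21, adjusted p = 0.450) and Atp6v0b, a subunit of the proton pump, at -0.24. Lamp2, a main membrane protein of lysosomes, was at -0.04, Lipa, the acid lipase, at 0.08, Ctsf, a cathepsin, at 0.08 and Syt11, a synaptotagmin, at -0.24. None of these 4 passed, with adjusted p-values from 0.822 to 0.967. Of 39 autophagy genes, 1 was lower at an unadjusted p and 0 higher, with a median of -0.02. With Cpt2 intact 0 were higher and 2 lower, against 6.37% and 4.81% of all genes. With Cpt2 deleted 6 were higher and 2 lower, against 10.5% and 10.7%, and 2 were called, against 2.71%. Of the 39, 3 passed the interaction, against 4.06%. Over both states Vmp1, an ER protein of autophagosome formation, was at -0.40 and Atg4b, which processes the LC3 family, at -0.19. Becn1, part of the lipid kinase complex that starts autophagosomes, was at -0.15 and Map1lc3b, which marks them, at 0.01.

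Among lipid genes the Ppara targets, the fatty acid catabolism genes that the fasted liver switches on, had more members lower than higher. Of 58 tested, 7 (12.1%) were lower and 1 was higher at an unadjusted p, against 2.8% and 4.05% of all genes, and none was called. The median was -0.06, with -0.15 where Cpt2 was intact (2 higher and 12 lower of 57, against 6.37% and 4.81% of all genes) and 0.01 where it was deleted (8 higher and 4 lower, against 10.5% and 10.7% of all genes). The list summed to a mean of 37014 CPM in ff;ff and 31278 CPM in Rab30L-/-, and of 76815 CPM in Cpt2L-/- and 83306 CPM in DKO. The count of 7 ran from 2 without Rab30L-/- replicate 2 or replicate 4 to 10 without Rab30L-/- replicate 1. Fitm1, which helps package triglyceride into droplets, was at 5.21, 6.45, 1.49 and 4.31 CPM in ff;ff and at 2.71, 2.50, 0.827 and 2.46 CPM in Rab30L-/-. In Cpt2L-/- it was at 11.2, 11.2, 16.9 and 13.6 CPM and in DKO at 8.63, 3.99, 3.63 and 5.72 CPM. Its groups overlapped with Cpt2 intact and not with Cpt2 deleted. On the log2 scale the fold change was -1.18 (SE 0.28, adjusted p = 0.201), and Fitm1 passed with DESeq2 (adjusted p = 0.00833) and with limma-voom (adjusted p = 0.0369). Plin4, a coat protein of lipid droplets, was at 12.4 to 77.4 CPM in ff;ff and 10.8 to 17.7 CPM in Rab30L-/-, and at 212 to 346 CPM in Cpt2L-/- and 111 to 259 CPM in DKO, with a log2 fold change of -1.25 (SE 0.38, adjusted p = 0.439).

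Lipogenesis gave 3 of 25 lower and 0 higher at an unadjusted p, against 2.8% and 4.05% of all genes, with a median of -0.08. Agpat2, an acyltransferase of phosphatidic acid synthesis, was at -0.36 and Acaca, the acetyl-CoA carboxylase of the cytosol, at -0.31. Srebf1, the transcription factor of this pathway, was at -0.23 (adjusted p = 0.706). Cholesterol synthesis gave 2 of 26 higher and 0 lower, with a median of -0.07, and with Fdft1, the squalene synthase, at 0.48 and Sc5d, a sterol desaturase, at 0.52. Lipoprotein assembly and clearance gave 4 of 39 higher and 1 lower, with a median of 0.06. Of the 39, 7 were called where Cpt2 was deleted, against 2.71% of all genes, 0 where it was intact, against 0.479%, and 5 in the interaction, against 4.06%. Apof, an inhibitor of lipid transfer between lipoproteins, was at 0.53 (SE 0.14, adjusted p = 0.259) and passed with DESeq2 (adjusted p = 0.0423), and its neighbour Apon was at 0.65 (SE 0.20, adjusted p = 0.420). Apob, the structural protein of very low density lipoproteins, was at 0.16, Apoe, a ligand for their uptake, at -0.28 and Apoa4, an apolipoprotein of triglyceride-rich particles, at 0.40, with adjusted p-values of 0.824, 0.736 and 0.848. The changes of Apoa4 pointed in opposite directions in the 2 states, 1.24 and -0.43, and their difference did not pass the test (adjusted p = 0.174).

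Of the remaining lists none had a called member in the additive edgeR fit. At an unadjusted p in that fit, 4.05% of all genes were higher and 2.8% lower. ER stress and integrated stress response genes gave 4 of 37 higher and 0 lower at an unadjusted p, with Psat1, an enzyme of serine synthesis, at 1.09 and Eif2ak3, the ER stress kinase, at 0.36, and with a median of 0.07. With Cpt2 intact 3 of 35 were higher and 0 lower, against 6.37% and 4.81% of all genes. With Cpt2 deleted 10 of 36 were higher and 4 lower, against 10.5% and 10.7%, and 1 was called, against 2.71%. The circadian clock gave 3 of 19 higher and 1 lower, with a median of 0.18 and with Per3, a period protein, at 0.79 and Bhlhe40, a repressor of the clock, at 0.37. Within the states more clock genes passed. With Cpt2 deleted 4 of 19 were called, against 2.71% of all genes, with Cry1 (1.51) and Nr1d1 (-1.22), named after their values were seen, among them. With Cpt2 intact 1 was called, against 0.479%, which was Dbp, a clock output factor also named after its values were seen, at 1.41, and 5 passed the interaction, against 4.06%. Glucocorticoid and gluconeogenic genes gave 2 of 25 higher and 0 lower, with Fbp1, fructose bisphosphatase, at 0.44 and Mt1, a metallothionein, at 0.72. Their median was -0.11, and it differed in sign between the states, -0.46 with Cpt2 intact and 0.30 with Cpt2 deleted. With Cpt2 intact 0 were higher and 7 lower, against 6.37% and 4.81% of all genes. With Cpt2 deleted 5 were higher and 0 lower, against 10.5% and 10.7%, and 5 of the 25 passed the interaction, against 4.06%. Drug and steroid metabolism gave 5 of 87 higher and 2 lower, with a median of 0.05 and with Cyp7a1, the rate-limiting enzyme of bile acid synthesis, at 1.33 (SE 0.51, adjusted p = 0.530) and Cyp2d22 at 0.24. With Cpt2 intact 7 of 86 were higher and 6 lower, against 6.37% and 4.81% of all genes. With Cpt2 deleted 19 of 85 were higher and 10 lower, against 10.5% and 10.7%, and 4 were called, against 2.71%. Of the 87, 8 passed the interaction, against 4.06%. Cell cycle genes gave 1 of 27 higher and 1 lower, with a median of 0.07. Pttg1, the securin that inhibits the protease separating sister chromatids, was at -1.70 (adjusted p = 0.332) and Mki67, a marker of dividing cells, at 0.62. Pttg1 was at 11.4 to 19.1 CPM in ff;ff and 0.847 to 1.92 CPM in Rab30L-/-, and at 19.7 to 31.6 CPM in Cpt2L-/- and 10.1 to 22.5 CPM in DKO, and the states differed (interaction 2.999, adjusted p = 0.000186). The call of Pttg1 depends on the fit, since it passed with DESeq2 (-1.87, adjusted p = 0.00830) and as the average of both simple effects (-1.92, adjusted p = 1.78e-05).

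**Figure D5:**
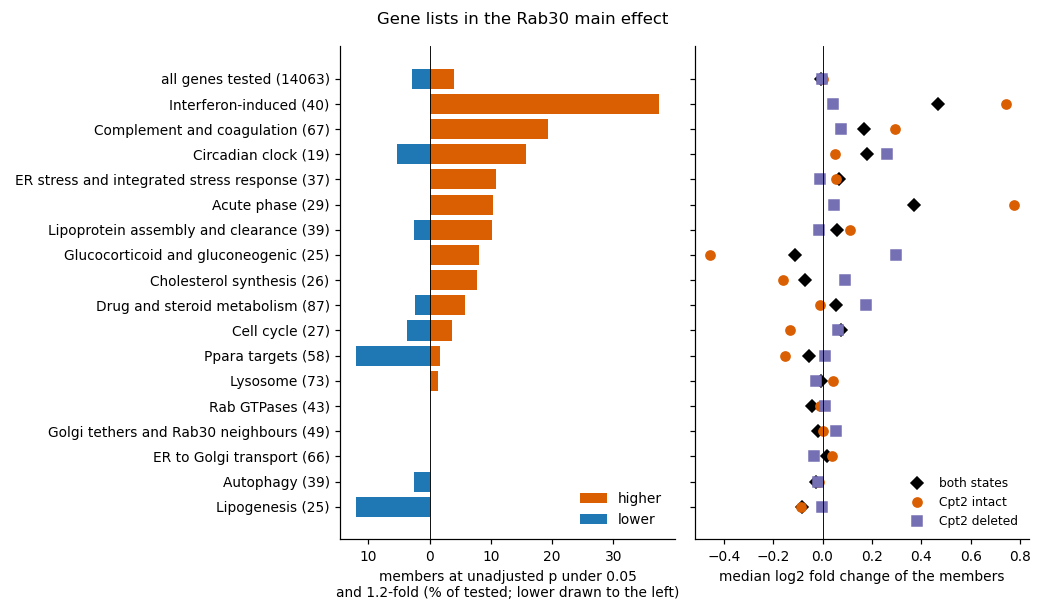
Left, the percent of each list's tested members that were higher (right of 0) or lower (left of 0) at an unadjusted p under 0.05 and a 1.2-fold change, with the number tested in brackets. Right, the median log2 fold change of the members over both states, with Cpt2 intact and with Cpt2 deleted. The interferon-induced list has 37.5% of members higher against 4.05% of all genes, and medians of 0.74 and 0.04 in the 2 states.

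The markers put the tissue as liver in all groups. The 8 hepatocyte markers summed to 100062 to 134831 CPM in ff;ff and 81213 to 97923 CPM in Rab30L-/-, lower without overlap, and to 46293 to 54728 CPM in Cpt2L-/- and 60098 to 74072 CPM in DKO, higher without overlap. The part of these opposite differences in the interferon and complement values was not tested. Their median log2 fold change was -0.13, with 0 members past an unadjusted p, and Apoa1, the main protein of high density lipoproteins, was at -0.20 and Hnf4a, a transcription factor of hepatocyte identity, at -0.16. Stellate cell and fibroblast markers gave 1 of 12 higher and 1 lower at an unadjusted p, with Acta2 at -1.44, Lrat at 0.37 and a median of 0.13. Of the Acta2 values, 12.4 CPM in ff;ff replicate 2 stood against 0.772 to 2.21 CPM in the other ff;ff livers. Sinusoidal endothelial markers gave 0 of 11 higher and 1 lower, with Egfl7 at -0.33, Oit3 at -0.18 and a median of -0.12. Bile duct markers gave 1 of 6 higher and 1 lower, with Sox9 at 0.68, Krt19 at -1.18 and a median of 0.14. Red cell markers gave 1 of 6 higher and 0 lower, with Hbb-bt at 0.88, Hba-a1 at 0.81 and a median of 0.36. Adipocyte markers gave 0 of 3 higher and 1 lower, with Cidea at -2.03, Adrb3 at 0.39 and a median of -0.15. Only 1 neutrophil marker, Mmp9 at 0.76, and 1 pancreatic acinar marker, Cela1 at -0.03, had enough counts to be tested, and neither passed. The neutrophil markers summed to at most 2.70 CPM in the ff;ff, Cpt2L-/- and DKO livers and to 1.32 to 21.0 CPM in the Rab30L-/- livers.

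Among protein-coding genes called in the interaction, the 3 highest and the 3 lowest values show how far some genes were from a change shared by both states. Ren1, the gene of renin, was at 79.1, 88.8, 214 and 0 CPM in ff;ff and at 0.285, 0, 57.2 and 0.281 CPM in DKO, while Rab30L-/- and Cpt2L-/- livers held at most 1.003 CPM. It was high in 3 of 4 ff;ff livers and in 1 of 4 DKO livers, so single livers weigh heavily on its values. Its interaction was 12.36 on the log2 scale (adjusted p = 0.0440). Ctse, a cathepsin, had an interaction of 8.08 (adjusted p = 0.0252), and Fam107a, a stress-induced actin regulator, of 7.29 (adjusted p = 0.0219). Rarres1, a retinoid-induced gene, was at 1.49 to 4.02 CPM in ff;ff, 10.5 to 71.7 CPM in Rab30L-/-, 67.4 to 131 CPM in Cpt2L-/- and 15.1 to 33.4 CPM in DKO, with an interaction of -6.11 (adjusted p = 0.000304). Rpl34, a protein of the large ribosomal subunit, was at 1.502 to 3.90 CPM in ff;ff and 1.78 to 3.93 CPM in DKO, and at 51.8 to 66.0 CPM in Rab30L-/- and 105 to 171 CPM in Cpt2L-/-. Its interaction was -9.74 (adjusted p = 7.96e-12), and its main effect was -0.53 (SE 2.63, adjusted p = 0.979). Rpl21 had an interaction of -5.95 (adjusted p = 0.00800). Both ribosomal genes have many processed copies in the genome, so their counts are uncertain.

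The whole-body knockouts give the loss of Rab30 in another background, with 4 Rab30KO livers and 4 wild-type littermates (Rab30 Ctrl), also fasted for 24 h. Of 13656 genes, 3 (0.022%) were called, all higher, against 302 at an unadjusted p with the fold. Gm3650 and Eif3j2 were among them, named after their values were seen. Eif3j2 was also tested in the main effect, where it did not pass, at -0.07 on the log2 scale. None of the 4 genes of the main effect passed in the whole-body pair. Their log2 fold changes there were 1.55 for Gbp11, 0.11 for Tram2, -0.20 for Gm14292 and -0.08 for Hjurp. Levels within this colony varied widely on both sides. Scaled within the 8 libraries, Gbp11 was at 24.8, 11.8, 51.5 and 12.5 CPM in Rab30 Ctrl and at 91.9, 13.03, 155 and 34.0 CPM in Rab30KO. Hjurp was at 84.8, 87.4, 119 and 46.6 CPM in Rab30 Ctrl and at 53.0, 140, 42.9 and 84.7 CPM in Rab30KO. The median log2 fold change of the interferon-induced list was 0.26 in the whole-body pair, against -0.00 over all genes, and that of complement and coagulation was 0.06. Of the 72 genes with the same sign in both Cpt2 states, 71 were tested in the whole-body pair, and 41 of them (57.7%) had the sign of the main effect, against 57.1% of all genes. None of the 41 was past an unadjusted p of 0.05. Of the other 30, Efna1, a membrane-bound ligand of Eph receptors named after its values were seen, was past it with the opposite sign, at -0.50 in the whole-body pair (unadjusted p = 0.0128 in edgeR) and 0.64 in the main effect.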

How the data were processed

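Liver RNA from 24 mice was sequenced by Novogene. The authors deposited raw counts per gene, used for all tests, and FPKM values, used only for levels per length. The submitters' processing notes name HISAT2, GRCm38 or mm10, and DESeq2; the counter, annotation and strand setting are not given in the sources used here. Tables of the authors' fold changes and p-values were not used, and 0 per-sample columns were left unmapped.

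Counts were filtered with filterByExpr, normalized by TMM and tested with edgeR 4.0.16 (robust quasi-likelihood, R 4.3.3) for the Rab30 term of an additive model with Cpt2 state, over 16 livers. A gene was called at a Benjamini-Hochberg adjusted p under 0.05 with a change of 1.2-fold or more. The states and the whole-body pair were fitted alone, and the interaction in a fit of the 4 groups. Scripts were tested on simulated data. Alternatives included DESeq2 1.42.0, limma-voom with sample quality weights (limma 3.58.1), other filters, no covariate, all 24 livers and leaving out each library.

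The members and lists were chosen with earlier results of these data known. Genes were named as called protein-coding genes, the 2 members of smallest p in each of 17 gene lists, 10 marker lists and the 5 Mb windows around Rab30 and Cpt2 where none was called, the 3 highest and 3 lowest interactions, and genes the study discusses. Gbp11 and Gm14292 are pseudogenes outside that rule and were added because they were called. Other genes are said to be chosen after their values were seen. Replicates were numbered in accession order. The lowest total of the 16 libraries was 13230854 counts, and the precision of low genes is limited by counting. Some genes that the naming rule or a count would have named are not reported here.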

Additional observations from a re-analysis of the deposited data

Results flagged for a closer look

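Of 80 groups of 4 livers examined, 6 held a value far from the other 3, where chance alone flags about 1 in 20 groups, or 4 of them. Zbp1 in Rab30L-/- had its lowest liver at 3.49 CPM and Fitm1 in Rab30L-/- at 0.827 CPM. Serping1 in Cpt2L-/- had its highest liver at 585 CPM. A Rab30L-/- library had the highest total, 24497738 counts. The share of counts from mitochondrial genes had its highest liver at 7.32% in Cpt2L-/- and its lowest at 6.60% in DKO.

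For 9 named genes the change with Rab30 differed between the Cpt2 states by the edgeR interaction test. Some genes named after their values were seen are not in this count, among them Rab36, Tmf1 and Sar1b, which also passed. The interaction was 1.39 on the log2 scale for Plekhb2, 2.999 for Pttg1, 7.29 for Fam107a, 8.08 for Ctse and 12.36 for Ren1. It was -0.99 for Cpt2, -6.11 for Rarres1, -9.74 for Rpl34 and -5.95 for Rpl21. Fam107a, Ctse, Ren1, Rarres1, Rpl34 and Rpl21 were named for the size of this value.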

How the results depend on the processing

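The number of genes called in the Rab30 main effect was 73 with DESeq2 (49 higher, 24 lower), 52 with limma-voom with sample quality weights (28 and 24), 34 as the average of both simple effects (23 and 11), 21 over all 24 livers (15 and 6), 7 with no filter (5 and 2), 3 with at least 10 counts in every library, where Gbp11 was not tested, 964 at an unadjusted p (570 and 394) and 0 without the Cpt2 covariate (0 and 0). The fit over all 24 livers held 3 of the 4 genes and lost Gm14292. Leaving out each library gave 2 to 12 called, 1 to 8 higher and 1 to 4 lower.

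With Cpt2 intact the count was 298 with DESeq2, 236 with limma-voom, 240 with no filter, 25 with at least 10 counts in every library and 1495 at an unadjusted p, and 23 to 93 with each library left out. With Cpt2 deleted it was 1032, 1534 and 705 with DESeq2, limma-voom and no filter, 2816 at an unadjusted p, and 57 to 445 with each library left out, the lowest without Cpt2L-/- replicate 4. The interaction gave 1080 with DESeq2, 1268 with limma-voom, 3056 at an unadjusted p, and 300 to 679 with each library left out. The whole-body pair gave 10 with DESeq2, 6 with no filter, 0 with at least 10 counts, 302 at an unadjusted p, and 0 to 4 with each library left out. The cause of these differences was not tested.

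The list counts were rerun after the data were seen. Without the Cpt2 covariate the interferon count was 9, the complement count 0 and the Ppara count 2, and over all 24 livers the interferon count was 6. Leaving out each library gave 13 to 19, 7 to 17 and 2 to 10. Rab30 ran from -0.62 to -0.33 and Cpt2 from 0.14 to 0.33 on the log2 scale.

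Among named genes that were not called, the sign of the log2 fold change turned without the covariate for Apoa4 (-0.11), Ctse (0.15), Lipa (-0.00877) and Rarres1 (-0.66). It turned with limma-voom for Ctse (0.50), Rarres1 (-0.21), Lamp2 (0.0476) and Golga4 (-0.0195). With each library left out the value passed through 0 for Ren1 (-6.70 to 0.51), Lamp2 (-0.0884 to 0.0761), Rpl34 (-2.28 to 1.25), Cela1 (-0.0971 to 0.0599), Map1lc3b (-0.0167 to 0.0532), Golga4 (-0.0380 to 0.0642) and Rpl21 (-0.59 to 0.63). Rpl21 was also at 0.19 with DESeq2, with the average of both simple effects and over all 24 livers. No paired analysis was possible because the replicate numbers only follow accession order.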
